A study of Hakea laurina with 6 samples.

Results

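PHT1 proteins are the phosphate transporters of the plant plasma membrane. They carry inorganic phosphate into the cell together with protons, which lets a root take up phosphate from a solution far more dilute than the cytosol. In Arabidopsis the family takes up phosphate at the root surface and also moves it between organs, and many of its genes respond to phosphate starvation. Cluster roots are dense bundles of short rootlets that most Proteaceae, among them Hakea laurina, form on phosphorus-poor soil.

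The values below are those of 5 contigs of a de novo root transcriptome of H. laurina, all matched to PHT1 genes of Arabidopsis, out of 183999 contigs in the count table. They were TRINITY_DN873_c0_g1, TRINITY_DN873_c0_g2, TRINITY_DN1936_c1_g1, TRINITY_DN16295_c0_g1 and TRINITY_DN9530_c0_g1, written below without the prefix. The annotated table of 7819 contigs, which held only contigs that differed between the root types in the study's own test, matched 22 contigs to PHT1, the 5 described and 17 others. The 5 contigs were thus chosen with the difference between the root types known, so their differences are given as a description, and no test of them is used as support.

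RNA-Seq was done on 3 libraries of mature cluster roots (MCR), whose rootlets had finished growing, and 3 libraries of tips of cluster-bearing lateral roots (TCR). All plants were germinated from seed and moved as seedlings to hydroponics without P, to which 6.4 μM phosphate was added at intervals of 2 to 3 months. They were about 3 yr old at harvest. No group was grown with ample P, so both root types come from plants on low P. Whether the libraries of a root type came from separate plants is not stated, so the spread given here is that between libraries. The estimated counts summed to between 13583740 and 19119494 per library. The root types follow the sample titles, which the column names repeat. The tissue field of every library, however, named the other root type. If the tissue labels were the right ones, all the directions below would be turned round. Of 19 contigs matched to genes of dividing cells, 13 were past the test threshold toward TCR and 0 toward MCR, where 31.7% of the annotated contigs passed toward TCR and 10.2% toward MCR. These 19 summed to between 30.2 and 77.0 CPM in MCR and between 437 and 787 CPM in TCR. Their fitted log2 fold change, MCR over TCR, was negative for 14 and positive for 5.

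The closest Arabidopsis genes were few. DN873_c0_g1, DN873_c0_g2 and DN9530_c0_g1 matched PHT1;3 (AT5G43360, TAIR10 chromosome 5, 17409524 to 17411214, forward strand), whose protein has 521 residues. In Arabidopsis PHT1;3 is one of a group of neighbouring PHT1 genes that are expressed in roots. DN1936_c1_g1 and DN16295_c0_g1 matched PHT1;5 (AT2G32830, TAIR10 chromosome 2, 13927754 to 13929657, reverse strand), with 542 residues, which in Arabidopsis moves phosphate between source and sink organs. A match names the nearest Arabidopsis gene and does not make the contig its counterpart. DN873_c0_g1 and DN873_c0_g2 come from the same component of the assembly, whose contigs can share sequence, so the split of reads between them is uncertain, and their sum is given as well.

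Values are given in CPM, which are the counts of each library brought to the same total over the contigs tested, with TMM factors between libraries. They are not corrected for contig length. The order of the contigs below is therefore an order of reads and not of transcripts.

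DN873_c0_g1 had the most reads of the 5 in all 6 libraries. Its level was 3873, 7236 and 7654 CPM in MCR1, MCR2 and MCR3, against 999, 1139 and 1210 CPM in TCR1, TCR2 and TCR3. The means were 6254 ± 2073 CPM in MCR and 1116 ± 108 CPM in TCR (SD, n = 3 each), a 5.60-fold difference. Every MCR library lay above every TCR library, and the lowest MCR library was 3.20 times the highest TCR library. Ranked by counts among all contigs, DN873_c0_g1 was in place 14, 4 and 5 in MCR1, MCR2 and MCR3 and in place 66, 55 and 46 in TCR1, TCR2 and TCR3. The other 4 contigs had at most 49.2 CPM in any TCR library.

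DN873_c0_g2 was abundant in MCR and scarce in TCR. It had 2834, 2003 and 1809 CPM in the 3 MCR libraries, against 10.4, 5.64 and 49.2 CPM in the 3 TCR libraries. The MCR mean of 2215 ± 544 CPM was 102 times the TCR mean of 21.8 ± 23.9 CPM (SD, n = 3 each). TCR3 held 6.12 times the mean of TCR1 and TCR2, and the lowest MCR library was still 36.8 times TCR3. The fitted log2 fold change was 6.67 ± 0.95 (SE), and 8.14 ± 0.59 without TCR3.

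DN1936_c1_g1, matched to another PHT1 gene, ran almost in step with DN873_c0_g2. It had 1082, 941 and 973 CPM in MCR, against 4.65, 2.88 and 20.4 CPM in TCR, with TCR3 again the highest TCR library at 5.41 times the mean of the other 2. The MCR mean was 999 ± 74.0 CPM and the TCR mean 9.30 ± 9.62 CPM (SD, n = 3 each), a 107-fold difference. Its log2 fold change was 6.74 ± 0.86 (SE), and 8.09 ± 0.45 without TCR3. For every 100 counts on DN873_c0_g2 there were between 38.2 and 53.8 counts on DN1936_c1_g1 in the MCR libraries and between 41.4 and 50.6 in the TCR libraries.

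DN16295_c0_g1 had the largest ratio between the root types and hardly any reads in TCR. It had 56.7, 139 and 126 CPM in MCR, against 0.358, 0.245 and 0.381 CPM in TCR. In TCR these values rest on 5, 4 and 7 counts, with 95% exact Poisson intervals of 1.62 to 11.7, 1.09 to 10.2 and 2.81 to 14.4 counts, whereas the MCR libraries held 836, 2221 and 2073 counts. The means were 107 ± 44.1 CPM in MCR and 0.328 ± 0.0727 CPM in TCR (SD, n = 3 each), and the fitted log2 fold change was 8.32 ± 0.54 (SE). The intervals of the 3 TCR libraries overlapped, so TCR3 did not stand out here as it did for DN873_c0_g2 and DN1936_c1_g1. MCR1 was the lowest MCR library, and without it the log2 fold change was 8.86.

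DN9530_c0_g1 was the contig with the fewest reads in MCR and the most variable there. It had 7.19, 11.0 and 21.3 CPM in MCR, against 0.429, 0.736 and 2.23 CPM in TCR, so that library 3 was the highest of both root types. The means of 13.1 ± 7.29 CPM in MCR and 1.13 ± 0.964 CPM in TCR (SD, n = 3 each) differed 11.6-fold, with a log2 fold change of 3.52 ± 0.80 (SE).

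**Figure D1:**
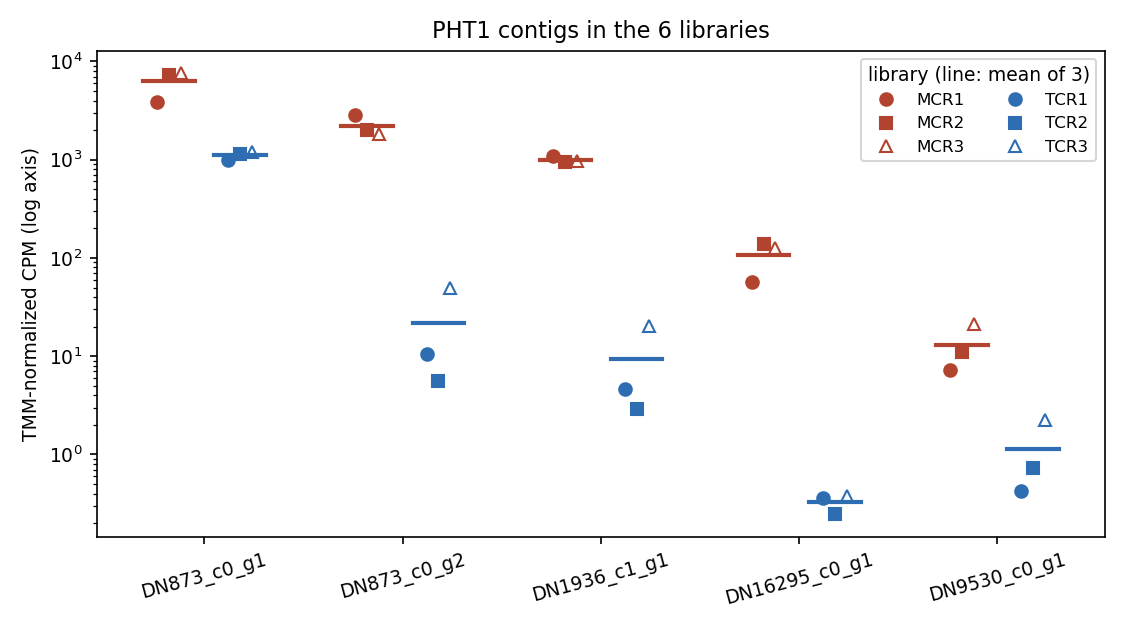
Levels of the 5 PHT1 contigs in each library, in TMM-normalized CPM on a log axis, with MCR in red left of TCR in blue, points for libraries and lines for the means of 3. Every MCR point lies above every TCR point of the same contig. TCR3 (open blue triangle) is the highest TCR library for all 5 contigs. It stands farthest above TCR1 and TCR2 for DN873_c0_g2 and DN1936_c1_g1, at 49.2 and 20.4 CPM.

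Ordered by reads, the MCR libraries gave DN873_c0_g1, DN873_c0_g2, DN1936_c1_g1, DN16295_c0_g1 and DN9530_c0_g1, and no contig's MCR range overlapped that of the next. In TCR the ranges of DN873_c0_g2 and DN1936_c1_g1 overlapped, and DN9530_c0_g1 came before DN16295_c0_g1. The contigs were chosen on this contrast. All 5 had every MCR library above every TCR library, as 10.7% of all contigs did, and all 5 were past the threshold toward MCR (adjusted p below 0.05 and a log2 fold change of 1 or more) in an edgeR quasi-likelihood test over 49813 contigs, as 2.40% of all contigs were. These counts, and those with a library left out, are no evidence about the contigs. The count of 5 was 2 without TCR1, with DN1936_c1_g1 and DN16295_c0_g1 left, and 3 without TCR2, where DN873_c0_g1 and DN9530_c0_g1 were lost, while 0.417% and 0.508% of all contigs were then called in that direction. It was 4 without MCR1, MCR2 or MCR3, DN9530_c0_g1 being the contig lost each time, with 2.07%, 2.32% and 5.74% of all contigs called, and 5 without TCR3, with 1.80%. The median log2 fold change of the 5 was 6.67, against 0.57 over all contigs tested. In bulk roots, fewer cells of a type and less RNA per cell cannot be told apart.

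The 5 contigs together took 0.736%, 1.01% and 0.911% of all estimated counts in MCR1, MCR2 and MCR3, against 0.104%, 0.113% and 0.151% in TCR1, TCR2 and TCR3. The 95% exact binomial (Clopper-Pearson) intervals of these shares were narrow, from 0.732% to 0.740% in MCR1 and from 0.149% to 0.152% in TCR3, and cover counting error only. The mean share was 0.885 ± 0.137% in MCR and 0.123 ± 0.0246% in TCR (SD, n = 3 each), a 7.22-fold difference, larger than the spread between libraries of either root type. As a share of the library, DN873_c0_g1 alone differed 4.84-fold. The other 4 contigs summed to 0.309 ± 0.0608% in MCR and 0.00368 ± 0.00417% in TCR, an 84.0-fold difference.

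Within the 5, the make-up of the reads differed between the root types. DN873_c0_g1 took 63.9 ± 12.7% of them in MCR and 97.3 ± 2.59% in TCR, and DN873_c0_g2 24.2 ± 10.4% in MCR and 1.79 ± 1.80% in TCR (SD, n = 3 each). DN1936_c1_g1 took 10.7 ± 2.67% in MCR and 0.766 ± 0.719% in TCR. DN16295_c0_g1 made up 1.08 ± 0.323% in MCR and 0.0288 ± 0.00701% in TCR. The smallest part, DN9530_c0_g1, was 0.133 ± 0.0594% in MCR and 0.0933 ± 0.0707% in TCR.

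**Figure D2:**
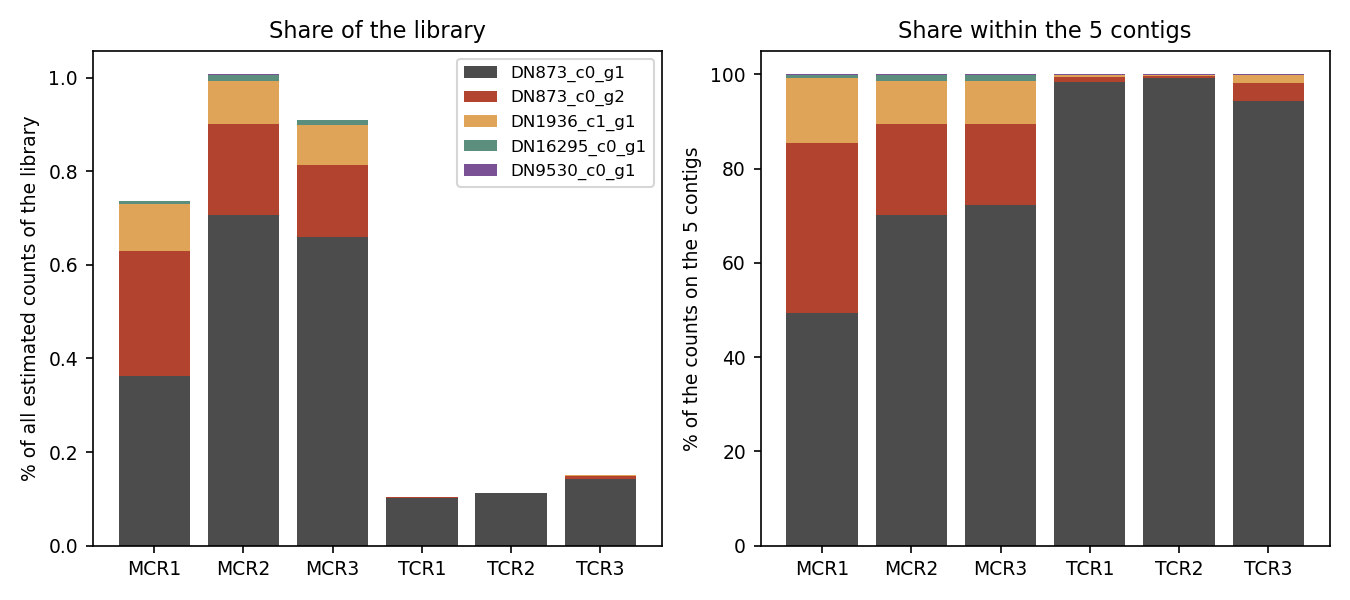
Left, the share of all estimated counts of a library that fell on each of the 5 PHT1 contigs, in percent. Right, the same counts as a percent of the 5, with bars for the 3 MCR libraries left of the 3 TCR libraries. The summed share is between 0.736% and 1.01% in MCR and between 0.104% and 0.151% in TCR, where nearly the whole bar is DN873_c0_g1.

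The MCR libraries differed in how the reads of the DN873_c0 component were divided. For every 100 counts on DN873_c0_g1 there were 73.2 on DN873_c0_g2 in MCR1, 27.7 in MCR2 and 23.6 in MCR3, against 1.04, 0.497 and 4.07 in TCR1, TCR2 and TCR3. MCR1 was the lowest MCR library for DN873_c0_g1 and the highest for DN873_c0_g2. As a share of the library, the coefficient of variation over the MCR libraries was 32.2% for DN873_c0_g1, 27.1% for DN873_c0_g2 and 17.8% for their sum. Fitted as 1 feature, the sum had a log2 fold change of 2.90 ± 0.32 (SE), against 2.49 ± 0.37 for DN873_c0_g1 alone. How far the assembly or the assignment of shared reads set this division was not tested.

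The spread between libraries of a root type was set against that of the 500 contigs with the nearest mean CPM. For the most abundant contigs these means were only loosely alike. In MCR they ranged from 337 to 9834 CPM for DN873_c0_g1 and DN873_c0_g2 and from 326 to 3062 CPM for DN1936_c1_g1. In TCR they ranged from 278 to 3761 CPM for DN873_c0_g1. In MCR, DN1936_c1_g1 was very even, with a coefficient of variation of 7.41%, lower than in all but 3.20% of such contigs. DN873_c0_g1 (33.1%) and DN873_c0_g2 (24.6%) were near or below the median of theirs, 33.3%. DN16295_c0_g1 (41.1%, against a median of 28.6%) and DN9530_c0_g1 (55.4%, against 36.9%) varied more than most. In TCR the picture was the other way round for the pair that ran in step. DN873_c0_g2 (110%) exceeded 99.6% of the contigs with a like mean and DN1936_c1_g1 (103%) exceeded 98.0%, whereas DN873_c0_g1 (9.65%) exceeded 22.4%, DN16295_c0_g1 (22.2%) 5.20% and DN9530_c0_g1 (85.2%) 80.2%.

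The high TCR spread came from TCR3. It was the highest TCR library for all 5 contigs, as for 26.0% of all contigs tested and 40.2% of those called higher in MCR. For DN9530_c0_g1 it held 3.83 times the mean of TCR1 and TCR2. For DN873_c0_g1 and DN16295_c0_g1 it held 1.13 and 1.26 times that mean. Among contigs called higher in MCR with a mean of at least 1 CPM in TCR1 and TCR2, 0.441% had a ratio of TCR3 to that mean as large as DN873_c0_g2, and 0.771% one as large as DN1936_c1_g1, the median ratio being 0.98. Over all contigs tested with such a mean, the shares were 0.658% for DN873_c0_g2 and 0.851% for DN1936_c1_g1, and the median ratio was 0.70. A high TCR3 works against a call toward MCR. The shares among called contigs are therefore a description only, and each contig is itself in both sets. TCR3 also differed from TCR1 and TCR2 in marker contigs. The 19 contigs of dividing cells summed to 68.0, 77.0 and 30.2 CPM in MCR1, MCR2 and MCR3, against 787, 737 and 437 CPM in TCR1, TCR2 and TCR3. Among them PLT1, a regulator of the root stem cell niche, had between 0.0608 and 0.0679 CPM in MCR, against 38.8, 37.2 and 5.55 CPM in TCR.

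The single contig of the root hair list, matched to EXPA7, an expansin of root hair cells, had 30.7, 60.8 and 150 CPM in MCR, against 10.6, 8.40 and 22.5 CPM in TCR, and was not called. The 2 contigs of the endodermis list lay in opposite directions. SCR, a transcription factor of endodermis and stem cell niche, had 10.3, 15.7 and 31.4 CPM in MCR, against 76.2, 78.0 and 43.3 CPM in TCR, and was not called (log2 fold change -1.78 ± 0.48). MYB36, which directs formation of the Casparian strip, was called higher in MCR, with 26.5, 13.7 and 14.4 CPM in MCR, against 0.859, 0.490 and 1.52 CPM in TCR. The 3 contigs of the xylem list summed to 123, 97.3 and 54.4 CPM in MCR, against 415, 441 and 296 CPM in TCR. Of them 1 was called higher in TCR, DN5687_c0_g1 (XCP1), and it made up most of the sum. It had 122, 80.6 and 54.4 CPM in MCR, against 415, 441 and 296 CPM in TCR. The 2 others had positive log2 fold changes and were not called. TCR3 was the lowest TCR library for the sums of dividing cells and xylem and for SCR, and the highest for EXPA7 and MYB36. Over all contigs tested it was the lowest TCR library for 53.3% and the highest for 26.0%. A low TCR3 is therefore not particular to these markers. The part of these cell types in the levels of the PHT1 contigs was not tested.

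**Figure D3:**
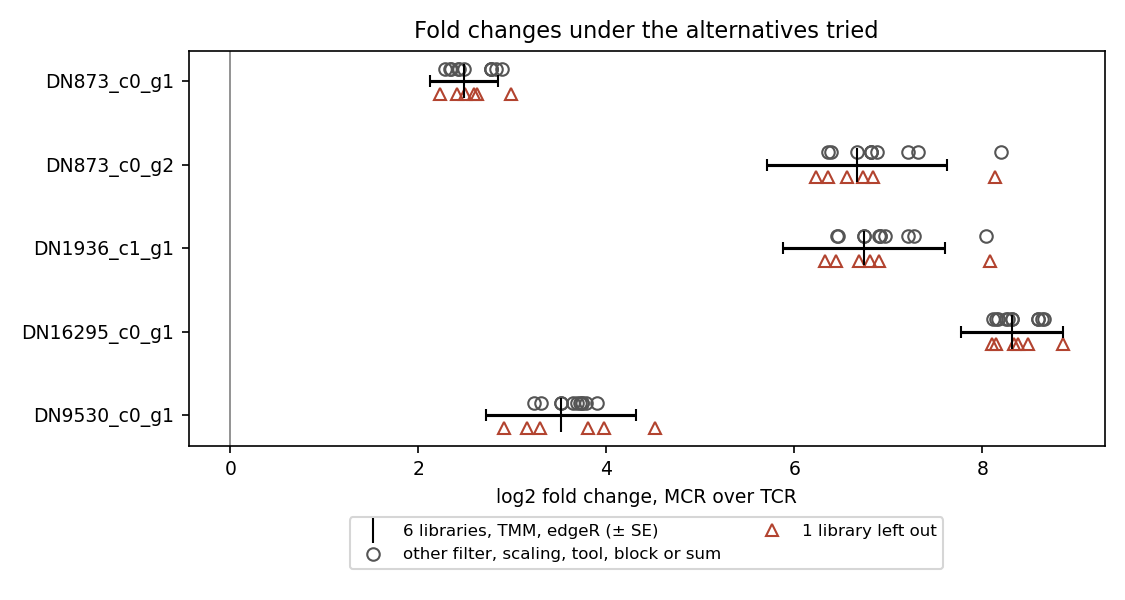
Log2 fold change of MCR over TCR for each PHT1 contig, with the fit of all 6 libraries as a black bar with its SE, grey circles for other filters, scalings, tools, the replicate block, the summed component or both libraries numbered 3 left out, and red triangles for 1 library left out. All values are above 0, and DN873_c0_g2 and DN1936_c1_g1 lie farthest right without TCR3 (8.14 and 8.09) and with both libraries numbered 3 left out (8.20 and 8.04).

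The scaling between libraries moved the fold changes of all contigs together. Their median was 0.57 on the log2 scale after TMM scaling, 0.84 after RLE scaling and 0.37 when libraries were scaled by their totals. The fold changes of the 5 contigs lay between 1.91 and 7.74 above the TMM median and kept their sign under all 3 scalings.

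Profiles were compared by the root-mean-square difference of log2(CPM + 0.5) over the 6 libraries after each had been centred on its mean, among about 3350 annotated contigs with a mean of 10 CPM or more. DN873_c0_g2 and DN1936_c1_g1 were each the other's nearest contig, with a difference of 0.185. The next nearest to both was DN478_c0_g1, an amidase family match, at 0.573 and 0.446. It had 404, 253 and 583 CPM in MCR, against 1.29, 1.72 and 8.71 CPM in TCR. The nearest contigs to DN873_c0_g1 were DN650_c0_g1, matched to the membrane-anchored ubiquitin-fold protein MUB2, and DN30_c0_g1, a sugar transferase match, both at 0.16. Nearest to DN16295_c0_g1 were DN1611_c1_g1 (beta-glucosidase BGLU47) at 0.28 and DN398_c0_g4 (glutathione transferase GSTL3) at 0.32. They had 48.3, 70.4 and 89.9 CPM and 41.3, 121 and 55.4 CPM in MCR. In TCR they had 0, 0 and 0.272 CPM and 0, 0.0613 and 0 CPM. These TCR values and those of DN16295_c0_g1 lie below the added 0.5, which therefore sets much of their likeness in TCR. DN9530_c0_g1 was nearest to DN6928_c0_g1, a ribose 5-phosphate isomerase match, at 0.14 and DN7460_c0_g3, a mitochondrial carrier match, at 0.16. These are descriptions over 6 libraries, and the median difference over all candidates was between 2.24 and 4.61. The annotated contigs were themselves chosen on the contrast between the root types. Of them 10.2% were called toward MCR and 31.7% toward TCR. This contrast weighs on the differences, so their size beside the median is no evidence about the 5 contigs. Among the 5 PHT1 contigs the least alike were DN873_c0_g1 and DN873_c0_g2 of the same component, at 2.58.

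The 17 other contigs matched to PHT1 were mostly seen in libraries 1 and 2 of both root types. They had matches to PHT1;1, PHT1;4, PHT1;5, PHT1;6, PHT1;8 and PHT1;9, genes that in Arabidopsis include the main transporters of uptake from soil (PHT1;1 and PHT1;4). Nearly no reads of 16 of them were in MCR3 and TCR3. Over the whole count table, 119736, 135523 and 87361 contigs had a count in MCR1, MCR2 and MCR3. In TCR1, TCR2 and TCR3 there were 95758, 106702 and 85093. These 16 contigs summed to 452, 431 and 2.01 CPM in MCR1, MCR2 and MCR3, against 37.5, 65.0 and 0.925 CPM in TCR1, TCR2 and TCR3. They are uneven, which here means that the lowest MCR library was under 0.1 of the mean of the other 2. The share of uneven contigs over all contigs tested was not computed. No count of uneven contigs, here or below, is therefore read as particular to its list. None of the 5 contigs was uneven. The 5 were chosen on a contrast in which spread within a root type counts. Neither this nor their spread given above is therefore evidence about them.

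DN16870_c0_g1, matched to PHT1;5, was the most abundant of the 16, with 141, 194 and 0.365 CPM in MCR, against 21.3, 29.5 and 0.163 CPM in TCR. DN6093_c1_g1, matched to PHT1;6, had 115, 35.5 and 0.0608 CPM in MCR, against 5.08, 8.15 and 0.109 CPM in TCR. DN15244_c0_g1, matched to PHT1;1, had 24.9, 48.9 and 1.09 CPM in MCR, against 3.86, 9.32 and 0.327 CPM in TCR. In each of these the root types overlapped, with library 3 low in both. The exception among the 17 was DN26941_c0_g1, a PHT1;4 match, with 0.543, 0.624 and 3.59 CPM in MCR, against 0, 0 and 0.0544 CPM in TCR.

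All 17 had a positive fitted log2 fold change, with a median of 3.70, or 3.50 with the 2 contigs that had no count in TCR set to the lower bound that 3 counts a library allow. The median over all contigs tested was 0.57. With edgeR's quasi-likelihood test 0 of the 17 were past the adjusted threshold and 4 had an unadjusted p below 0.05. The edgeR exact test called 1 toward MCR, against 3.95% of all contigs, DESeq2 5, against 8.45%, and limma-voom 0, against 2.10%. Without MCR3 the quasi-likelihood test called 5, against 5.74% of all contigs. With the replicate number as a block 17 of 17 were called toward MCR, against 20.1% of all contigs, and with both libraries numbered 3 left out 14 of 17, against 14.3%. With every contig that had a count in the fit, 17 of 17 were called, against 2.70%. Of the annotated contigs, 10.2% were called toward MCR in the quasi-likelihood test on 6 libraries. The 17 too come from the annotated table, which was chosen on these libraries. Their direction, median and counts of calls are therefore no evidence about them. The 17 together held 5.77%, 4.18% and 0.0527% of the counts of the 5 in MCR1, MCR2 and MCR3, against 3.70%, 5.67% and 0.0764% in TCR1, TCR2 and TCR3.

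**Figure D4:**
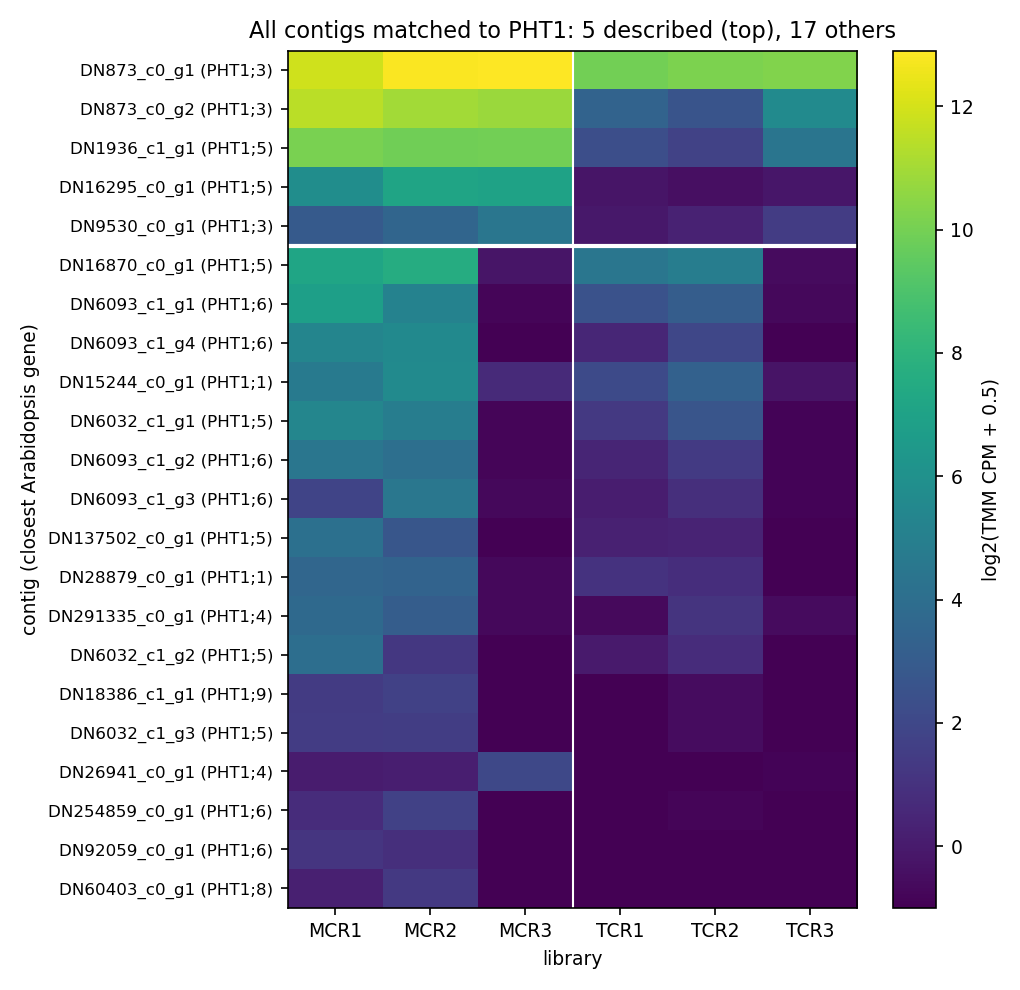
Level of all 22 contigs matched to PHT1, as log2(TMM CPM + 0.5), with 1 row per contig, the 5 described contigs above the white line and the 17 others below it, and the 3 MCR libraries left of the 3 TCR libraries. The upper rows are bright in all 3 MCR libraries, whereas 16 of the lower rows are dark in MCR3 and TCR3, where they sum to 2.01 and 0.925 CPM.

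Phosphate reaches the other compartments of a plant through other transporters, and its supply is sensed through SPX proteins and the PHR transcription factors. Of 28 annotated contigs on 2 lists for phosphate transport and signalling, 2 were called higher in MCR and 3 higher in TCR (edgeR quasi-likelihood test), and 20 were uneven. Beyond SPX and PHR matches, the signalling list held contigs matched to LPR1, LPR2, PDR2 and IPK1. It also held DN51084_c2_g1, matched to BIG, an auxin transport protein that has LPR1 among its symbols. Of all 7819 annotated contigs 10.2% were called toward MCR and 31.7% toward TCR, and of all contigs tested 2.40% and 5.98%. The median log2 fold change of the 28 was 4.07, or 2.95 with the 8 contigs without a count in TCR at their lower bound. Over all contigs, uneven or not, it was 0.57. For the 8 of the 28 that were not uneven it was -0.20. Of the 28, 24 had a positive log2 fold change, and of these 8, 4 had. Unevenness is defined on MCR alone, and no median was computed for all contigs that were not uneven. The -0.20 therefore has no like value beside it. The table that supplied the names was itself chosen on these libraries. The 5 calls of 28 stand beside 8.39% of all contigs called in either direction. They were 0 without TCR1, where 1.07% of all contigs were called, 0 without TCR2 (1.30%), 1 without MCR2 (5.49%), 2 without TCR3 (6.99%) and 11 without MCR3 (13.4%). With the replicate block 23 were higher in MCR and 4 in TCR, while 35.5% of all contigs were called in either direction. With every contig that had a count the numbers were 24 and 4 (5.03% of all contigs), under DESeq2 8 and 4 (18.7%), and with both libraries numbered 3 left out 12 and 3 (28.1%).

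Of the 14 contigs for transport inside the cell and for export, 0 were called higher in MCR and 2 higher in TCR. At an unadjusted p below 0.05 there were 7, and DESeq2 called 3 higher in MCR and 2 higher in TCR. DN3220_c0_g1, matched to AT4G22990, a carrier with an SPX domain of the kind that loads phosphate into the vacuole in Arabidopsis, had 20.1, 10.3 and 9.97 CPM in MCR, against 45.2, 52.8 and 36.8 CPM in TCR. Its log2 fold change was -1.74 ± 0.38 (SE, adjusted p = 0.0352 in edgeR's quasi-likelihood test). DN12427_c0_g3, matched to PHT4;6, a Golgi phosphate transporter in Arabidopsis, had 1.02, 0.499 and 1.22 CPM in MCR, against 7.01, 5.58 and 5.17 CPM in TCR. Its log2 fold change was -2.69 ± 0.63 (adjusted p = 0.0435). The 12 others were uneven and matched plastid (PHT2;1) and mitochondrial (PHT3;1 and PHT3;2) transporters and 1 EXS family protein. The most abundant, DN3021_c0_g2 (PHT3;1), had 281, 124 and 14.6 CPM in MCR, against 32.1, 34.8 and 5.01 CPM in TCR.

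Of the 14 signalling contigs, 2 were called higher in MCR and 1 higher in TCR. DN6290_c0_g1, matched to PHL1, a transcription factor of the phosphate starvation response, had 46.8, 39.9 and 112 CPM in MCR, against 4.87, 4.41 and 10.2 CPM in TCR (log2 fold change 3.34 ± 0.56, adjusted p = 0.0157). DN6755_c2_g1, matched to SPX1, which in Arabidopsis holds back PHR1 when phosphate is ample and is itself induced by starvation, had 312, 482 and 508 CPM in MCR, against 164, 165 and 187 CPM in TCR (1.34 ± 0.29, adjusted p = 0.0338). A pair of contigs of 1 component, both matched to SPX3, lay in opposite directions. DN2651_c0_g1 had 75.1, 240 and 193 CPM in MCR, against 59.8, 68.2 and 37.1 CPM in TCR (1.62 ± 0.48, adjusted p = 0.0863), and did not pass. DN2651_c0_g3 had 2.38, 1.50 and 1.58 CPM in MCR, against 10.4, 9.75 and 8.11 CPM in TCR (-2.37 ± 0.48, adjusted p = 0.0285). Reads may be split between these contigs as in the DN873_c0 component.

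LPR1 and LPR2 encode oxidases of the Arabidopsis root tip that take part in the growth response to low phosphate. DN4315_c0_g1, matched to LPR1, had 12.8, 14.1 and 108 CPM in MCR, against 7.73, 9.13 and 18.1 CPM in TCR, and the root types overlapped. DN6651_c0_g1, matched to LPR2, had 5.09, 0.437 and 2.37 CPM in MCR, against 13.1, 14.4 and 24.8 CPM in TCR. Neither was past the threshold without the block (adjusted p = 0.200 and 0.0960 in edgeR's quasi-likelihood test). A second LPR2 contig of the same component, DN6651_c0_g2, was uneven and lay in the other direction. It had 18.1, 0.561 and 0.426 CPM in MCR, against 0.286, 0.245 and 0.490 CPM in TCR. Its log2 fold change was 4.19 ± 1.56 (SE), and it was not called. Reads may be split between these LPR2 contigs as in the DN873_c0 component. With the replicate block all 8 contigs that were not uneven were called, 4 toward MCR and 4 toward TCR. The LPR1 and first SPX3 contigs were then called toward MCR and the first LPR2 contig, DN6651_c0_g1, toward TCR. Without the block, the SPX1 and PHL1 contigs were the ones of these lists called higher in MCR, at 2.52 and 10.2 times the TCR mean.

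**Figure D5:**
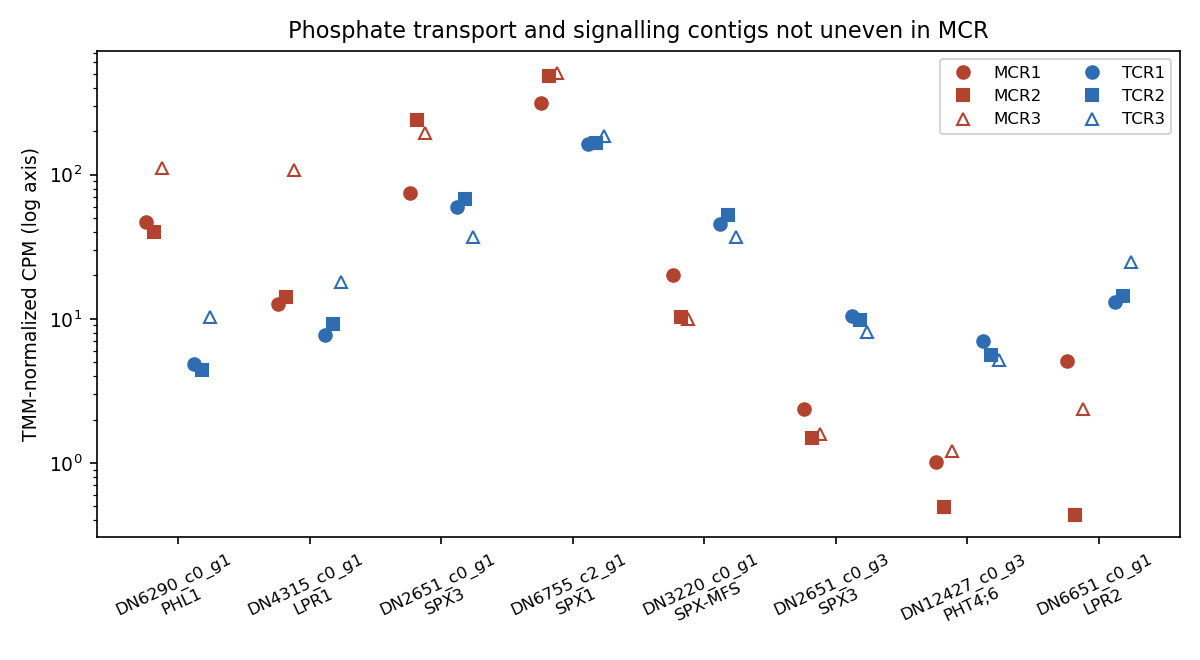
Levels of the 8 phosphate transport and signalling contigs that were not uneven, in TMM-normalized CPM on a log axis, MCR in red left of TCR in blue, 1 point per library, ordered by log2 fold change from left to right. The PHL1, first SPX3 (DN2651_c0_g1) and SPX1 contigs lie higher in all 3 MCR libraries. The SPX carrier (SPX-MFS), the second SPX3 contig and the PHT4;6 and first LPR2 (DN6651_c0_g1) contigs lie lower in all 3.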

How the data were processed

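The authors cleaned reads with Trimmomatic (0.39), assembled them with Trinity and quantified contigs with Salmon (1.9.0). The deposited table holds estimated counts, not normalized. Between 14059 and 19037 nonzero values in each library were not whole numbers. How transcripts were summed to contigs is not given in the sources used here. A second deposited table holds CPM that the authors normalized after removing low contigs, with a lowest value of 0.01. It was used only for names, which the authors took from the closest Arabidopsis (TAIR10) protein. Its log2 fold changes and p-values, made by the authors with edgeR (4.0.14), are their own comparison of MCR with TCR and were not used.

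Counts were rounded. Contigs averaging 0.4 CPM or more in at least 1 root type entered the fit (49813, with 134186 removed) in edgeR 4.0.16 under R 4.3.3, with TMM factors, the quasi-likelihood test and Benjamini-Hochberg adjustment. Calls needed an adjusted p below 0.05 and a log2 fold change of at least 1 in size. SE values come from the fold change and its F statistic. Intervals on shares and counts were computed with scipy 1.17.1.

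Alternatives were other filters on low counts, RLE factors, unscaled totals, the exact test of edgeR, DESeq2 1.42.0, voom in limma 3.58.1, a block for the replicate number, the DN873_c0 contigs as a sum, and each library left out. Leaving out both libraries numbered 3 was added after seeing the data. The contigs and lists were chosen with earlier results of these data known. Named are the 5 contigs, other contigs matched to PHT1 (the larger ones and the exception singly, after their values were seen), contigs of the pathway lists that were called or averaged 10 CPM or more, and the 2 annotated contigs nearest in profile to each of the 5. DN6651_c0_g2 is named as well, since it shares a component with DN6651_c0_g1.

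Whether the numbers in the sample titles pair the libraries was examined on 14706 contigs above a mean of 5 CPM. Deviations from the root type means correlated across contigs at 0.336 for MCR1 with TCR1, 0.363 for MCR2 with TCR2 and 0.477 for MCR3 with TCR3. Between different numbers the values were 0.316 for MCR1 with TCR2, 0.185 for MCR2 with TCR1 and between -0.502 and -0.295 for pairs with 1 library numbered 3, so the clearest split was between the libraries numbered 3 and the others. The fit reported has no block. The fit with the number as a block is given beside the calls on the other PHT1 contigs, the phosphate lists and all contigs. With it the log2 fold change was 7.31 ± 0.52 (SE) for DN873_c0_g2 and 7.27 ± 0.50 for DN1936_c1_g1. The marker contigs are given without it. No source other than the titles gives a pairing.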

Additional observations from a re-analysis of the deposited data

How the results depend on the processing

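The log2 fold changes of the 5 PHT1 contigs kept their sign under all the alternatives tried. Leaving out 1 library gave 2.23 to 2.98 for DN873_c0_g1, 6.23 to 8.14 for DN873_c0_g2, 6.33 to 8.09 for DN1936_c1_g1, 8.10 to 8.86 for DN16295_c0_g1 and 2.91 to 4.52 for DN9530_c0_g1. With both libraries numbered 3 left out, DN873_c0_g2 had 8.20 and DN1936_c1_g1 8.04. The sum of the DN873_c0 component had 2.90. The number of the 5 past the threshold was between 2 and 5 with 1 library left out and 5 under the other alternatives (4 of 4 with the DN873_c0 component summed). The replicate block changed none of these 5 calls. It changed those on the 17 other PHT1 contigs and the phosphate lists, as given with them. Since the contrast chose the 5, these counts are no sign of stability.

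The log2 ratio of the summed share was 2.85, between 2.75 and 3.03 with 1 library left out, 3.34 with RLE-normalized library sizes and 6.39 without DN873_c0_g1. Over all contigs 4177 were called with 6 libraries. This was 9240 with every contig that had a count, 6552 with the exact test, 9293 under DESeq2, 17704 with the replicate block and 15868 with both libraries numbered 3 left out, and between 535 (without TCR1) and 7460 (without MCR3) with 1 library left out, 651 without TCR2. Calls toward MCR were 28.6% with TMM, 39.8% with RLE factors and 19.8% with library size alone. The 5 phosphate pathway calls were 28 with every contig that had a count, 12 under DESeq2, 27 with the block and 15 with both libraries numbered 3 left out, and between 0 and 11 with 1 library left out. The cause of these differences was not tested. Depth limits the values of DN16295_c0_g1 in TCR, at 4 to 7 counts a library. Contig lengths and sequences were not used here.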

Other observations

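The read clusters of the assembly that hold the PHT1 contigs also hold contigs without a name in the annotated table. The cluster DN873 has 2 more, which summed to 78.5, 84.7 and 771 estimated counts in MCR1, MCR2 and MCR3, against 206, 213 and 431 in TCR1, TCR2 and TCR3. DN873_c2_g1 held 37.0, 57.0 and 754 of these counts in MCR, against 198, 196 and 409 in TCR. The cluster DN1936 has 6 more contigs, which summed to 597, 537 and 716 counts in MCR, against 269, 313 and 246 in TCR. DN16295_c1_g1 had 524, 520 and 387 counts in MCR, against 127, 144 and 165 in TCR. These are counts without scaling, the contigs were looked at after the values of the 5 had been seen, and whether they belong to PHT1 genes is not known.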
